A study of Mus musculus with 4 samples.

Results

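The imprinted genes examined here are 39 mouse genes that are expressed mainly or only from the allele of 1 parent in at least some tissues, and they were taken from a list of gene names. Every non-control probe whose gene name on the array was one of these 39 was used, which gave 73 probes of the 39429 on the array, and 39 genes of its 30199 gene names. RNA of E14tg2a, an established mouse ES cell line, was read on 1-color Agilent arrays, with 1 array for each of 4 conditions. These were non-treated cells (0 h), cells given control siRNA (72 h), and cells given mRif1 siRNA, harvested after 48 h or 72 h. The mRif1 siRNA was a mix of mRif1#2 and NC#1 according to the methods, and all 4 groups shared ES medium with fetal bovine serum and leukemia inhibitory factor. The labels give no difference between the groups beyond transfection and time, and the share of cells that took up siRNA is not given in the sources used here. Each condition had 1 array, so no difference given here has a replicate check, an SD or a p-value.

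Imprinting rests largely, though not at every imprinted gene, on DNA methylation. This is laid down at control regions in the germ cells of 1 parent and is kept after fertilization by Zfp57, Trim28 and Dnmt1. Most imprinted genes lie in clusters in which 1 control region sets the expression of several genes, often through a long noncoding RNA or through Ctcf binding. Many of them regulate growth of the embryo and placenta, and ES cells in culture can lose their imprints. The arrays measured the total RNA of both alleles, so they do not tell from which allele a transcript came. In such bulk samples, fewer cells that express a gene and less RNA per cell cannot be told apart.

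The level of a probe is its processed signal divided by the 75th percentile of its array. Unless named otherwise, 4 levels in a row are those of untreated cells, control siRNA, Rif1 siRNA (48 h) and Rif1 siRNA (72 h). Rif1 itself, the targeted gene, read 5.55, 5.42, 2.15 and 4.15, which is a log2 difference from control siRNA of -1.34 at 48 h and -0.39 at 72 h. The 9 markers of ES cells were well above background on all 4 arrays, and 0 of their 14 probes differed over 2-fold from control siRNA at either time. Of all probes kept by a filter on dim probes, 2.83% were over 2-fold higher and 1.01% lower at 72 h. At 48 h these shares were 3.18% and 1.2%, so 0 of 14 is near them. Past 1.5-fold were 2 of the 14 (14.3%) at 72 h and 1 (7.14%) at 48 h, beside 7.9% and 10.1%. The share of spots well above background was 58.8% to 74.1% and was higher on both Rif1 siRNA arrays than on the others. The part of this difference in the results for dim probes was not tested. For probes printed as 10 spots, the SD between spots had a median of 0.063 to 0.067 (log2), whereas control siRNA and untreated cells differed with an SD of 0.26 over 22551 probes. The latter is not a replicate SD, since transfection and time differ as well.

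Of the 73 probes, 62 passed the filter on dim probes and 55 were well above background on all 4 arrays. A passing probe was found for 36 genes, and Kcnq1, Rasgrf1 and Rtl1 had none. The genes were read by 1 probe (17 genes) or by up to 4 probes (22 genes with more than 1). A run of 16 bases shared with a probe of another gene name occurs in 7 member probes, of Cd81, Cdkn1c, Grb10, Impact, Peg12, Phlda2 and Usp29, and cross-hybridization there was not tested.

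The results below turn on Magel2 and Ndn, which lie side by side and were higher with Rif1 siRNA at both times, on their neighbors Mkrn3 and Peg12, which differed little, and on Dio3 and Plagl1. Their promoters are shown for that reason, as the 250 bases before the RefSeq transcription start in GRCm38.p6, with CpG dinucleotides in capitals.
Ndn (chr7:62348027-62348276, plus strand): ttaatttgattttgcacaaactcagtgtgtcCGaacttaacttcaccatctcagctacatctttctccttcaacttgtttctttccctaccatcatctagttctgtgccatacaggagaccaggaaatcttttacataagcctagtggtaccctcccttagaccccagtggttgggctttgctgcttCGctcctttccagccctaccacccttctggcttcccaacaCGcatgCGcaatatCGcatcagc
Magel2 (chr7:62376729-62376978, plus strand): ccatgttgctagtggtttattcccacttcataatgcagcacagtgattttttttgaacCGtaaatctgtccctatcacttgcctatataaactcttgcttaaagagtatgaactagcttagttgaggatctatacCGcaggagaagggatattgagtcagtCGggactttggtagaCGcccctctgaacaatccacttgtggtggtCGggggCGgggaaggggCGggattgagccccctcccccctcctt
Mkrn3 (chr7:62420154-62420403, minus strand): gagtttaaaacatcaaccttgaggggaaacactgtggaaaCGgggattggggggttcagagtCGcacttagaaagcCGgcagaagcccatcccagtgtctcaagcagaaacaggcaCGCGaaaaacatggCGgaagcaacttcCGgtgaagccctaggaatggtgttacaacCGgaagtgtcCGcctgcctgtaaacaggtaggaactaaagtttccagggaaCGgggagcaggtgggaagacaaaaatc
Peg12 (chr7:62464511-62464760, minus strand): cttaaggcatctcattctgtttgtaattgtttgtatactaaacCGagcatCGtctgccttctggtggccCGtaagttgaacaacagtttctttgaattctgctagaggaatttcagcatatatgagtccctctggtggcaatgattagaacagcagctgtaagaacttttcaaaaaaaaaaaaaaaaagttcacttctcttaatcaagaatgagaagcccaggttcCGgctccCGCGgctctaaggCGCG
Dio3 (chr12:110278980-110279229, plus strand): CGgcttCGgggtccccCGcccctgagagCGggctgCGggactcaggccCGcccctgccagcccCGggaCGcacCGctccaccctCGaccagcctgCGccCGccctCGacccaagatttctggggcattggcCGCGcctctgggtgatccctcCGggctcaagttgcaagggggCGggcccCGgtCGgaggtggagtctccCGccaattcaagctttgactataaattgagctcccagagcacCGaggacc
Plagl1 (chr10:13090582-13090831, plus strand): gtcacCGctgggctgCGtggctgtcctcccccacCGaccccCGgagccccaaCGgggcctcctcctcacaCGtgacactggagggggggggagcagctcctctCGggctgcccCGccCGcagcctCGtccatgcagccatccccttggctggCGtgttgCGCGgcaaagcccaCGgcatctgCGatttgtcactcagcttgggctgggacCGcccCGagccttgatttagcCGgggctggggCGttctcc

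The windows of Ndn and Magel2 held 5 and 7 CpG, those of Mkrn3 and Peg12 held 10 and 8, and the CpG-rich windows of Plagl1 and Dio3 held 19 and 21. RefSeq windows were matched for 32 of the 39 genes (47 windows), and their median was 10 CpG against 6 over all 32851 windows. The core motif of Zfp57, the zinc finger protein that keeps imprints, is TGCCGC. On either strand it was found in 6 of the 47 windows (12.8%) and in 8.68% of all windows, where windows of 1 gene can overlap, as 2 of these 6, both of Mest, do. Among the printed windows it occurs in that of Plagl1, once, from position 161 on the opposite strand. A match of letters is a description and not a site.

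Most imprinted genes differed little between Rif1 siRNA and control siRNA, and Dio3, Magel2, Ndn and Plagl1 stood out with higher levels. Of the 62 passing probes, 51 lay within 1.5-fold of control siRNA at 72 h and 50 at 48 h. At 72 h, 4 of the 62 passing probes were over 2-fold higher than with control siRNA (Dio3, Magel2 and a pair of Plagl1 probes), or 6.45%, where 2.83% of all 27706 passing probes were. The pair of Plagl1 probes shares sequence, and counted once it leaves 3 of 61 (4.92%). A further probe (Nap1l5) was over 2-fold lower, where 1.01% of all probes were. At 48 h, 3 probes were over 2-fold higher (Dio3, Magel2 and Ndn), beside a background of 3.18%, of which Ndn was just under 2-fold with normexp background correction, and Nap1l5 was again lower, beside a background of 1.2%. Each probe makes up 1.61% of the list, so all of these shares lie within 3 probes of the background. Over 1.5-fold in either direction were 8 probes at 72 h and 8 at 48 h (12.9% each), beside 7.9% and 10.1% of all probes.

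The median log2 difference of the imprinted gene probes was 0.09 at 72 h (59 probes with a fold change) and 0.13 at 48 h (58 probes), against -0.05 for all probes at both times. At 72 h 40 probes were higher and 19 lower, and at 48 h 37 were higher and 21 lower, where 40.6% and 42.2% of all probes were higher. After normexp background correction these splits were 30 to 28 at both times (medians 0.02 and 0.03), where 27.5% and 32.7% of all probes were higher (medians -0.11 and -0.10), so the direction of small differences depends on how background is treated. Both comparisons use the same control siRNA array, harvested at 72 h, so they are not independent of each other, and in the 48 h comparison siRNA and harvest time cannot be told apart. On both Rif1 siRNA arrays above both other arrays lay 24 of the 62 probes (38.7%), where 17.9% of all probes did, and below both lay 6 (9.68%), where 35.3% of all probes did. With normexp correction these were 15 above (24.2%, beside 12.5%) and 12 below (19.4%, beside 43.7%). With a gap of over 1.5-fold, the counts were 4 above (6.45%, beside 3.01%) and 0 below (beside 0.346%). These 4 were Magel2, Ndn and the pair of Plagl1 probes, or 3 of 61 (4.92%) with the pair counted once.

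**Figure D1:**
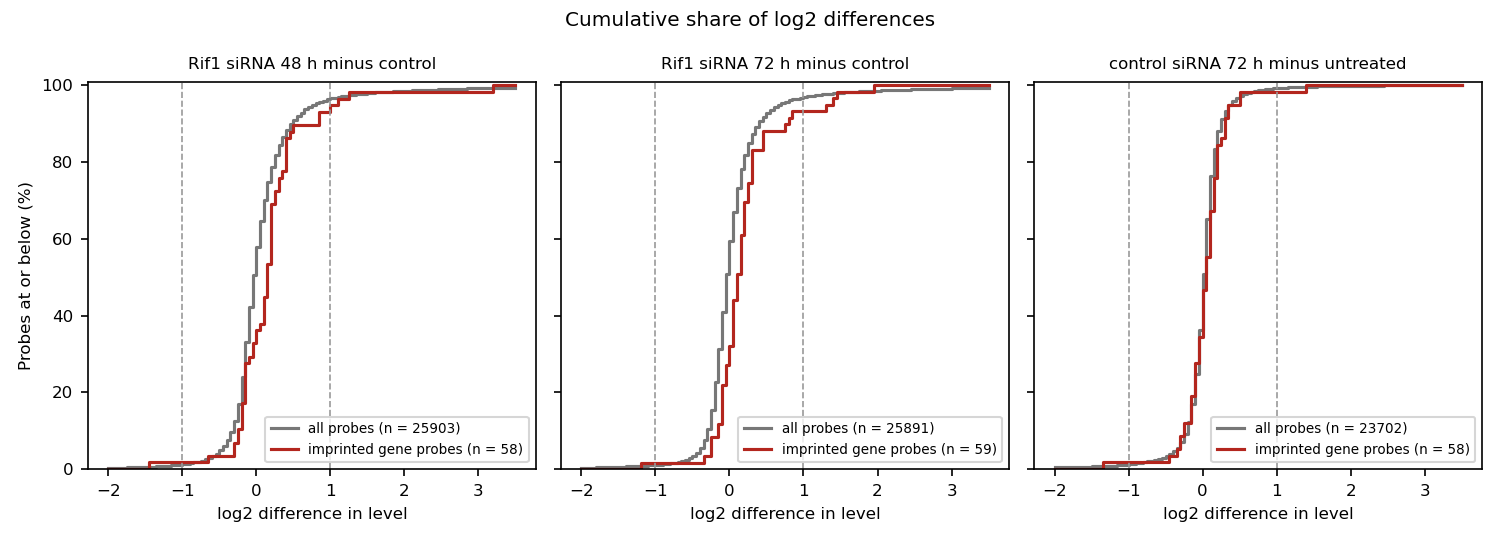
Cumulative share of probes (%, vertical axis) at or below each log2 difference in level (horizontal axis) in the 3 comparisons, for all probes passing the filter (gray) and for imprinted gene probes (red). The red curves lie to the right of the gray ones around 0 for Rif1 siRNA (medians 0.13 at 48 h and 0.09 at 72 h), and the dashed lines mark 2-fold.

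By parental expression, the 37 passing probes of the 23 genes expressed from the paternal allele held all 8 probes that passed 1.5-fold at 72 h, and 7 of the 8 at 48 h. These are 21.6% and 18.9% of the list, beside 7.9% and 10.1% of all probes. Their median log2 difference was 0.14 at 72 h and 0.13 at 48 h. The counts past 1.5-fold hold both probes of the Plagl1 pair, which is not independent. With normexp correction Airn (0.31 at 72 h and 0.46 at 48 h, log2) and Usp29 (0.18 at 72 h) no longer passed 1.5-fold. Of the 22 passing probes of the 15 maternally expressed genes, 0 passed 1.5-fold at 72 h and 1 (Ascl2) did at 48 h, or 0% and 4.55% beside the same background, with medians of -0.00 and 0.14. In a list of 22 probes, 1 probe is 4.55%, so these counts lie within 2 probes of the background. No test of the difference between the lists was made.

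**Figure D2:**
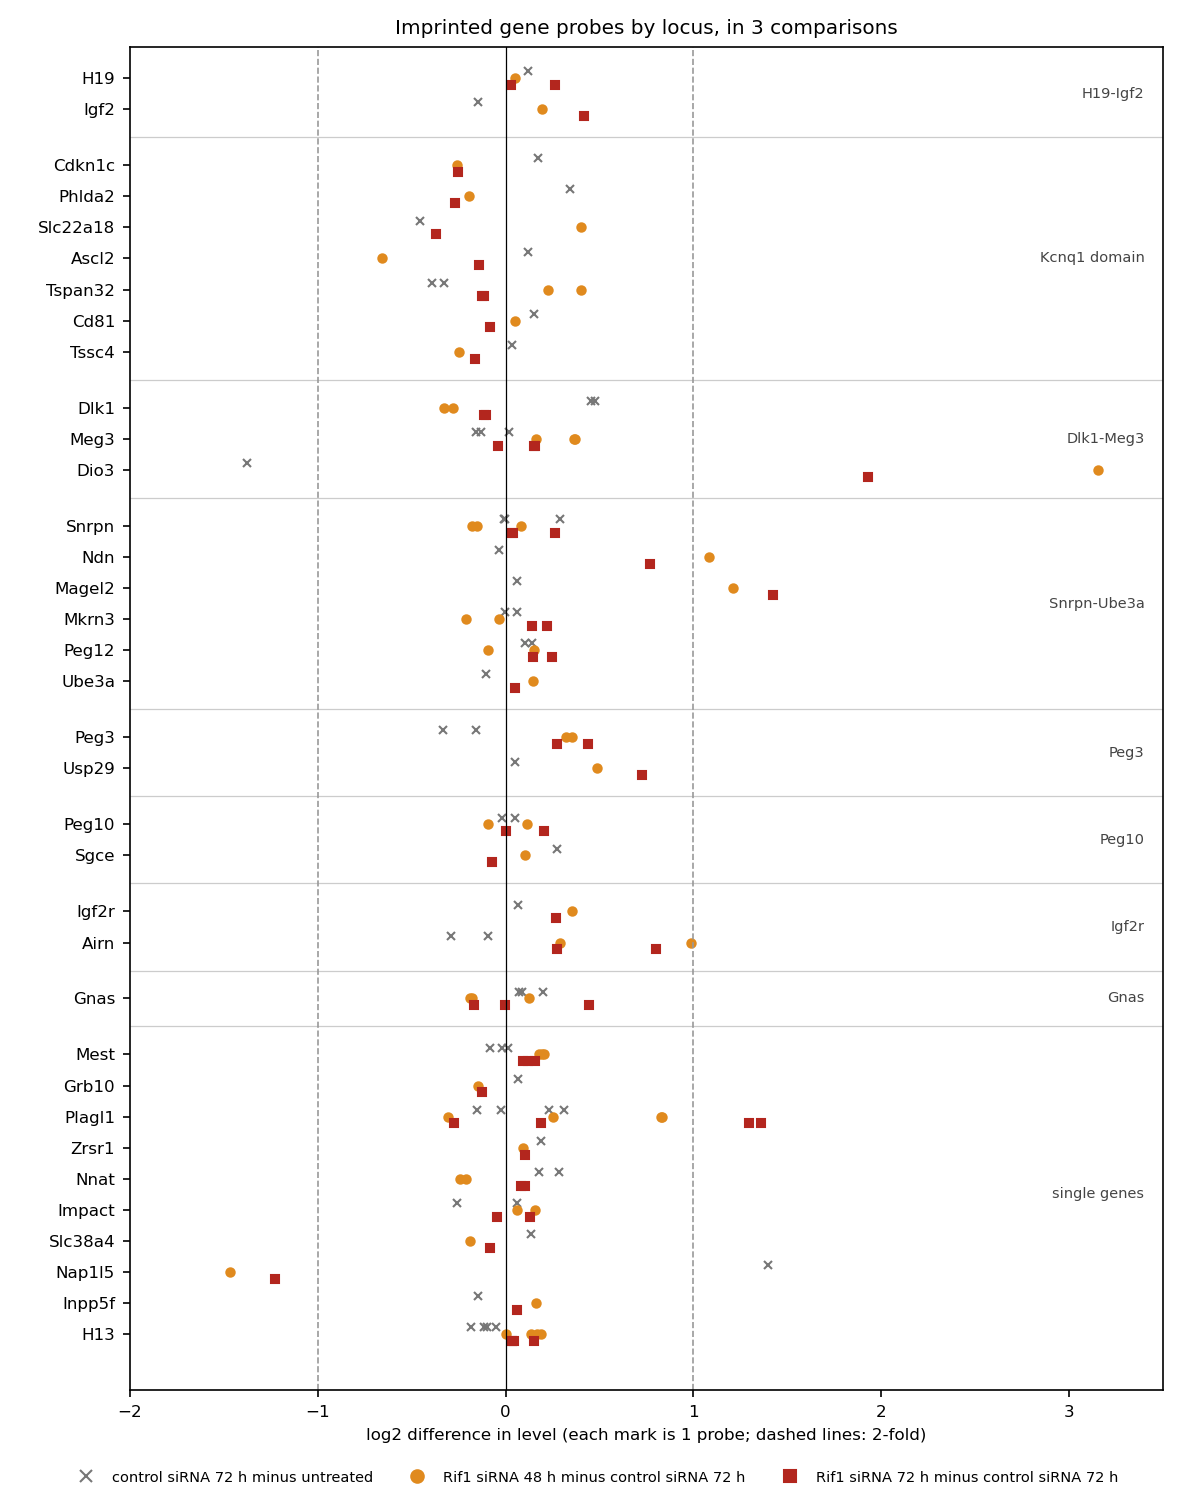
The log2 difference in level (horizontal axis) of each passing probe, 1 mark per probe, for the genes named at left and grouped by locus, in the 3 comparisons. Dio3 reaches 3.15 at 48 h. Magel2, Ndn and the pair of Plagl1 probes that share sequence pass or near the dashed 2-fold line at right, and the other Plagl1 probes do not. Nap1l5 lies past the line at left while its control siRNA value lies past the line at right.

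Dio3, the type 3 deiodinase that inactivates thyroid hormone, had the largest difference from control siRNA among the passing probes of imprinted genes at both times. Probe A_55_P2091468, on mm9 at chr12:111518792-111518851, read 0.127, 0.0490, 0.437 and 0.187. Both Rif1 siRNA arrays were the highest, and the control siRNA array was the lowest. Against control siRNA Dio3 was 8.91-fold higher at 48 h and 3.81-fold higher at 72 h. Against untreated cells it was 3.43-fold higher at 48 h and 1.47-fold higher at 72 h, since untreated cells were themselves 2.60-fold above control siRNA. The size of the difference at 72 h therefore rests on the reference array. With normexp background correction its log2 difference was 2.38 at 48 h and 1.27 at 72 h, compared with 3.15 and 1.93.

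Dio3 lies at the far end of the Dlk1-Meg3 cluster, whose paternally expressed protein genes stand beside maternally expressed noncoding RNAs. Dlk1, a membrane protein of the Notch ligand type, had levels of 1.18, 1.64, 1.34 and 1.51. Its log2 difference from control siRNA was -0.28 at 48 h and -0.12 at 72 h, whereas control siRNA was 0.48 above untreated cells. Its other probe gave differences of -0.33 and -0.10.

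Meg3, the noncoding RNA of the cluster, had levels of 5.48, 4.91, 6.31 and 4.77 at its brightest probe. The 3 Meg3 probes differed from control siRNA by 0.16 to 0.37 (log2) at 48 h and by -0.04 to 0.16 at 72 h. Within 500 kb of the Dio3 probe, 12 other passing probes of genes outside the list were present, 11 of them with a fold change at 72 h. Over 2-fold differed 0 of them at either time (medians -0.02 at 48 h and -0.10 at 72 h). Of all probes 3.18% were higher and 1.2% lower at 48 h, and 2.83% and 1.01% at 72 h, so 0 of 12 is near these shares. The highest of them was 0.81 at 48 h and 0.30 at 72 h (log2).

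Magel2 and Ndn were the clearest pair of neighbors. Both encode MAGE family proteins, of which Magel2 acts with a ubiquitin ligase in protein recycling and Ndn (necdin) restrains growth in neurons, and both lie in the region of mouse chromosome 7 that corresponds to the human Prader-Willi region. Magel2 (mm9 chr7:69526370-69526429) read 0.230, 0.240, 0.556 and 0.644. Ndn (mm9 chr7:69493847-69493906) read 0.230, 0.224, 0.475 and 0.382. For both genes each of the Rif1 siRNA arrays lay above both other arrays, and the latter were nearly equal. Of all probes 17.9% also had both Rif1 siRNA arrays above both others, and 3.01% by over 1.5-fold.

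Against control siRNA, Magel2 was 2.32-fold higher at 48 h and 2.68-fold higher at 72 h, and Ndn 2.12-fold and 1.71-fold. With normexp correction the log2 difference of Ndn at 48 h was 0.95, under the 2-fold line, compared with 1.08. With untreated cells as the reference, Magel2 was 2.42-fold and 2.80-fold higher and Ndn 2.07-fold and 1.67-fold. Control siRNA differed from untreated cells by 0.06 for Magel2 and -0.04 for Ndn (log2). The software gave errors of 0.0644 to the Magel2 level at 72 h and 0.0475 to that of Ndn at 48 h, which cover the spot and not the culture.

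The other genes of the cluster differed less. Mkrn3, a makorin zinc finger protein whose probes lie 69 kb beyond that of Ndn, had levels of 0.269, 0.268, 0.262 and 0.312, and its pair of probes differed from control siRNA by -0.21 and -0.03 at 48 h and by 0.14 and 0.22 at 72 h (log2). Peg12, a relative of the Frat proteins that bind glycogen synthase kinase, had levels of 0.324, 0.348, 0.327 and 0.385 at a probe that shares a run of 16 bases with one of Frat1. Snrpn, a splicing protein whose first exon holds the control region, was bright and flat with levels of 5.11, 5.10, 4.51 and 5.23.

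Ube3a, a ubiquitin ligase that is maternally expressed in neurons, had levels of 0.698, 0.650, 0.718 and 0.674. At 72 h all 10 probes of the cluster with a fold change were higher than with control siRNA (median 0.18), where 40.6% of all probes were, and 8 of 10 were after normexp correction. At 48 h 5 were higher and 5 lower. Among genes outside the list, 1 passing probe lay within 500 kb of Ndn, and its difference was -0.04 at 48 h and -0.06 at 72 h.

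**Figure D3:**
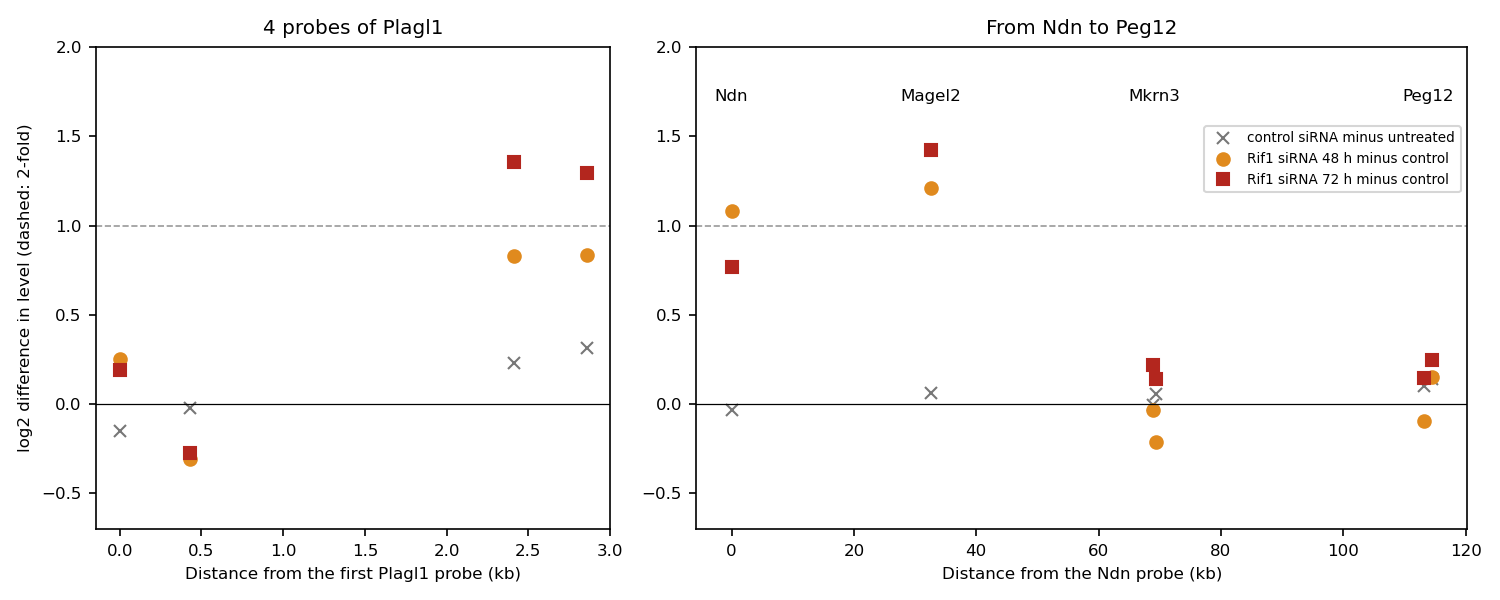
The log2 difference in level (vertical axis) of the Plagl1 probes against their distance (kb) from the first one (left), and of the probes from Ndn to Peg12 against their distance from the Ndn probe (right), in the 3 comparisons. Ndn and Magel2 lie 32.5 kb apart and are between 0.77 and 1.42 with Rif1 siRNA, while Mkrn3 and Peg12 stay between -0.21 and 0.25.

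Plagl1, a zinc finger transcription factor also known as Zac1 that can arrest the cell cycle, was read by 4 probes that did not tell the same story. Probe A_55_P1961968 read 0.148, 0.174, 0.308 and 0.445. Probe A_52_P532456 read 0.123, 0.152, 0.271 and 0.374. Both were higher with Rif1 siRNA than on the other arrays, 1.77-fold and 1.78-fold above control siRNA at 48 h and 2.56-fold and 2.46-fold at 72 h.

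The other Plagl1 probes lie at lower coordinates, with the starts of all 4 probes within 2.86 kb on the plus strand of mm9, and they differed little. Probe A_55_P2153251 read 0.0602, 0.0592, 0.0479 and 0.0489, with log2 differences from control siRNA of -0.31 at 48 h and -0.27 at 72 h. Probe A_55_P1961965 read 0.0490, 0.0441, 0.0525 and 0.0503, with log2 differences of 0.25 and 0.19, which turned to -0.02 and -0.07 with normexp correction. The first bases of the 4 probes are shown because the pair that was higher is not independent, with the bases that the printed starts of this pair have in common in capitals. The pair goes on sharing bases past what is printed, so lower case does not mark unshared bases.
Plagl1 A_52_P532456 (mm9 chr10:12851280-12851339): tgcccagtatatATCTCCTAACCTTTGATG
Plagl1 A_55_P1961968 (mm9 chr10:12850832-12850891): ATCTCCTAACCTTTGATGactctgtacttt
Plagl1 A_55_P2153251 (mm9 chr10:12848851-12848910): attttcacagctggctccaacactgctatc
Plagl1 A_55_P1961965 (mm9 chr10:12848421-12848480): actgccagtgccacagccactaccacagcc

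Over 48 aligned bases the pair is identical at 46, although the array files place them 448 bases apart. RNA that binds one of them may thus bind the other, so the pair is not independent evidence. No further probe on the array shares a run of 16 bases with either. Within 500 kb of these probes 11 probes of genes outside the list passed the filter, and 0 differed over 2-fold at either time. Of all probes 3.18% were higher and 1.2% lower at 48 h, and 2.83% and 1.01% at 72 h, so 0 of 11 is near these shares. Which transcripts of Plagl1 each probe reads was not examined here.

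**Figure D4:**
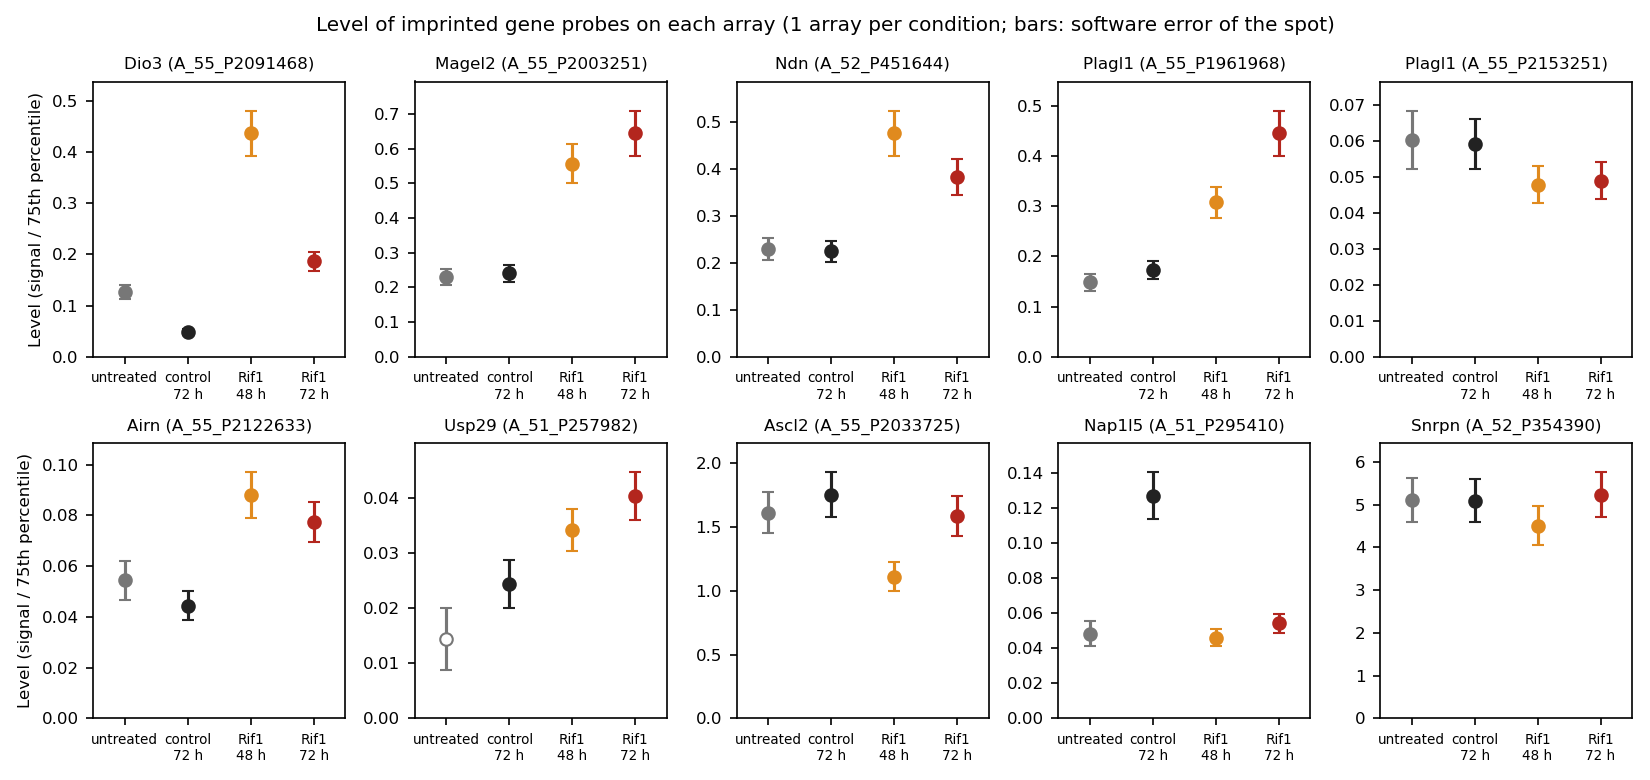
Level (signal over the 75th percentile of the array, linear axes from 0) of 10 probes on the 4 arrays, 1 point per array, with bars for the error that the software gave the spot and an open point where the spot was not well above background. Dio3, Magel2, Ndn and the Plagl1 probe A_55_P1961968 are highest on the Rif1 siRNA arrays, Nap1l5 is high on the control siRNA array alone, and Snrpn is flat.

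At the Igf2r cluster, Airn is the paternal antisense RNA that silences Igf2r and its neighbors in cis. Its probe A_55_P2122633 read 0.0544, 0.0444, 0.0879 and 0.0775. This was 1.98-fold above control siRNA at 48 h and 1.74-fold at 72 h, just under the 2-fold line, and 0.46 and 0.31 on the log2 scale after normexp correction. A second Airn probe read 0.110, 0.103, 0.126 and 0.124, which was 0.29 and 0.27 above control siRNA, and the 2 remaining Airn probes were dim, not well above background, throughout.

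Igf2r, the receptor that clears Igf2 from the cell surface, was maternally listed and was also higher. Over 10 spots it read 0.953 ± 0.061 (SD), 0.990 ± 0.049, 1.27 ± 0.045 and 1.20 ± 0.062. The spots of 1 probe on 1 array are technical replicates, so this spread says nothing of the cultures. The log2 difference was 0.35 at 48 h and 0.27 at 72 h.

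The Peg3 cluster held small positive differences. Usp29, a ubiquitin peptidase that starts back to back with Peg3, had a dim probe. It read 0.0143, where it was not well above background, 0.0244, 0.0342 and 0.0403. It was 1.40-fold and 1.65-fold above control siRNA, and 0.06 and 0.18 (log2) after normexp correction, so its difference at 72 h depends on the background step. Peg3, a zinc finger protein of growth and maternal behavior, had levels of 0.235, 0.210, 0.263 and 0.254, and its pair of probes was 0.32 and 0.35 higher at 48 h and 0.27 and 0.44 higher at 72 h (log2). The dimmer of these, with 0.35 and 0.44, gave 0.02 and 0.03 after normexp correction. Zim1, another zinc finger gene, had no fold change, since its 0.0119 and 0.0147 with Rif1 siRNA lay under the lowest level well above background of the control siRNA array (0.0159).

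Nap1l5, of the nucleosome assembly protein family, was lower by over 2-fold, which no other passing probe of the 39 genes was. It read 0.0483, 0.127, 0.0459 and 0.0541. The control siRNA array was high and the other 3 arrays were alike. The pixels of this Nap1l5 spot had an SD of 59.9 in raw signal on the control siRNA array and 26.1 to 28.5 on the others. Their raw mean was also higher there, at 261 against 124 to 137, so the larger SD goes with a larger signal. A second Nap1l5 probe was near background (0.00599, 0.00774, 0.0147 and 0.00874), was not well above it on the untreated and control siRNA arrays, and has no fold change. Nap1l5 was 2.76-fold and 2.34-fold below control siRNA at 48 h and 72 h, but -0.07 and 0.17 (log2) from untreated cells, and control siRNA was 2.63-fold above untreated cells. The lower call is thus lost at both times when untreated cells are the reference. With normexp correction it is lost at 72 h (-0.94) and kept at 48 h (-1.12). Within 500 kb of this probe 6 probes of genes outside the list passed the filter, too few for a share. At each time 1 of them was over 2-fold higher than with control siRNA and 1 was over 2-fold lower.

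Ascl2, a basic helix-loop-helix factor needed for trophoblast, was past 1.5-fold at 48 h, as the one probe of the Kcnq1 domain to be so among those that passed the filter. It read 1.61, 1.75, 1.11 and 1.59. The 48 h array was lowest (1.58-fold below control siRNA), and the 72 h array differed from control siRNA by -0.14 (log2). The domain is a large maternally expressed cluster that is silenced on the paternal allele by the noncoding RNA Kcnq1ot1.

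In the same domain, Cdkn1c, the cell cycle inhibitor p57, had levels of 7.03, 7.93, 6.63 and 6.67. Phlda2, a growth restraint in the placenta, had levels of 3.28, 4.16, 3.64 and 3.45. Both were highest with control siRNA, and their log2 differences from it with Rif1 siRNA were -0.27 to -0.19. Slc22a18, a membrane transporter, had levels of 0.416, 0.304, 0.402 and 0.235, with log2 differences of 0.40 at 48 h and -0.37 at 72 h.

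The tetraspanin Tspan32 went the same way, with levels of 0.249, 0.190, 0.251 and 0.174 at its brighter probe. The tetraspanin Cd81 was bright and flat at 20.7, 23.0, 23.8 and 21.8, and Tssc4, a splicing factor, read 4.51, 4.61, 3.88 and 4.13. All 8 probes of the domain were below control siRNA at 72 h (median -0.15, range -0.37 to -0.08), or 7 of 8 after quantile normalization, where 59.4% of all probes were below, and at 48 h 4 were above and 4 below. None of the 8 passed 2-fold. Of all probes 2.83% were higher and 1.01% lower at 72 h, and 3.18% and 1.2% at 48 h, so none of 8 is near these shares.

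Of the H19-Igf2 pair, H19, the maternal noncoding RNA, had levels of 0.925, 1.00, 1.04 and 1.21, and Igf2, the growth factor, had levels of 0.0415, 0.0375, 0.0429 and 0.050. Both were highest at 72 h of Rif1 siRNA, by 0.26 and 0.41 over control siRNA (log2). For Igf2 the latter was 0.06 after normexp correction.

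Gnas is a complex locus with transcripts of either parent, best known for the Gs alpha protein. Which of them its main probe reads was not examined here, and that probe read 9.87, 10.5, 9.21 and 9.34. Peg10, a gene of retrotransposon origin, read 0.199, 0.206, 0.193 and 0.206, and its neighbor Sgce (epsilon-sarcoglycan) 0.216, 0.261, 0.280 and 0.249. These main probes were within 0.19 (log2) of control siRNA at both times. A dim Gnas probe, not well above background in untreated cells, read 0.0236, 0.0271, 0.0296 and 0.0368.

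The other bright members were as steady. Impact, an inhibitor of the Gcn2 stress kinase, read 11.2, 11.7, 12.2 and 11.3, and Slc38a4, an amino acid transporter, read 4.78, 5.26, 4.62 and 4.96. The signal peptide peptidase H13 read 3.17, 2.93, 3.29 and 3.0. With Cd81, Gnas, Cdkn1c, Snrpn, Meg3, Tssc4 and Phlda2 these are the 10 brightest main probes, and none of them differed over 1.5-fold from control siRNA. Of all probes 7.9% did at 72 h and 10.1% at 48 h, so none of 10 is near that share.

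Mest, a hydrolase-like gene read over 10 spots, had levels of 2.35 ± 0.096 (SD), 2.32 ± 0.10, 2.65 ± 0.099 and 2.47 ± 0.11, with differences of 0.19 and 0.09 at 48 h and 72 h. Grb10, an adaptor that restrains insulin signaling, read 0.605, 0.634, 0.572 and 0.581. Nnat, a small membrane proteolipid, read 0.223, 0.271, 0.235 and 0.292. Zrsr1, a splicing factor relative, read 1.46, 1.66, 1.77 and 1.78. For these 4 genes the differences between Rif1 siRNA and control siRNA were at most 0.21 (log2) at the main probe.

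Inpp5f, a lipid phosphatase, Kcnq1, a potassium channel, and Rtl1, a retrotransposon-derived placental gene, each had a probe that was raised on 1 array alone. Probe A_55_P2129836 of Inpp5f read 0.0324 on the control siRNA array and 0.00509, 0.00548 and 0.00671 on the untreated, 48 h and 72 h arrays. On the 48 h array probe A_55_P2094641 of Kcnq1 read 0.0273 and the Rtl1 probe 0.0272, against at most 0.00527 on the other 3 arrays. The log2 difference of this Inpp5f probe from control siRNA was a bound of -2.06 at 48 h and -2.27 at 72 h. Kcnq1 and Rtl1 were at least 1.72-fold higher than control siRNA at 48 h.

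The pixels of each raised spot had an SD of 41.1, 38.4 and 36.8 in raw signal, where the same probes had 8.94 to 14.6 on the other arrays. The raw means of these spots were 109, 92.5 and 96.3, against 43.5 to 60.7 on the other arrays. The software flagged none of these spots as nonuniform. For Kcnq1 a second probe overlaps the first, so it reads nearly the same bases. The first 30 bases of both are shown for that reason, with the bases found in both printed starts in capitals. Further shared bases lie outside the overlap of the printed starts.
Kcnq1 A_55_P2086203 (mm9 chr7:150612887-150612946): aatttcgtaGTATGATCTTGATTGAGAGAC
Kcnq1 A_55_P2094641 (mm9 chr7:150612896-150612955): GTATGATCTTGATTGAGAGACttttccaaa

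The Kcnq1 probes share 51 of their 60 bases with an offset of 9, and the overlapping one read 0.00694 on the 48 h array, not well above background. These 3 probes did not pass the filter and entered no count above. Inpp5f's other probe read 0.113, 0.102, 0.115 and 0.107. Rasgrf1, a Ras exchange factor of brain, was dim at both of its probes throughout.

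Control siRNA and untreated cells were closer to each other. Of the 62 probes, 1 was over 2-fold higher with control siRNA (Nap1l5) and 1 lower (Dio3), beside 0.592% and 1.04% of all probes, both of which were also past 2-fold in the Rif1 siRNA comparisons, where the control siRNA array is the reference. With normexp correction neither passed 2-fold between control siRNA and untreated cells (0.82 for Nap1l5 and -0.90 for Dio3). Only these 2 passed 1.5-fold (3.23%, beside 4.12%), and the median of 58 probes was 0.03 (log2). Magel2, Ndn and both higher Plagl1 probes differed by at most 0.31 in this comparison.

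A further list of imprinted genes, 38 of them with a probe on the array, was examined the same way. Of its 47 passing probes, 0 were over 2-fold from control siRNA at 72 h, beside 2.83% of all probes higher and 1.01% lower. At 48 h 2 were higher (Ano1 and Sfmbt2) and 1 lower (Kcnk9). The 48 h shares were 4.26% and 2.13%, beside 3.18% and 1.2% of all probes. Over 1.5-fold in either direction were 7 (14.9%) at 72 h and 5 (10.6%) at 48 h, beside 7.9% and 10.1% of all probes. The other Sfmbt2 probes differed by 0.55 and 0.01 (log2) at 48 h. Ano1, a chloride channel, read 0.0749, 0.0808, 0.174 and 0.129. The list's medians were -0.05 at 72 h and 0.05 at 48 h. Kcnq1ot1, the noncoding RNA of the Kcnq1 domain, read 0.0769, 0.0578, 0.0705 and 0.0670 at its brighter probe, 0.29 above control siRNA at 48 h and 0.21 at 72 h (log2).

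A list of 19 genes (29 passing probes) held Rif1 itself and genes that place, keep or erase imprints. At 72 h 0 of these probes differed over 2-fold from control siRNA, beside 2.83% of all probes higher and 1.01% lower. At 48 h 1 was lower, which was Rif1. Rif1 was the target of the siRNA, so this call is no result about the other genes. Higher at 48 h was 1, which was Ctcfl, a testis relative of Ctcf, with levels of 0.0746, 0.0766, 0.162 and 0.138. Each is 3.45% of the list, beside 1.2% of all probes lower and 3.18% higher. Zfp57 read 1.82, 1.35, 1.66 and 1.24, Trim28, its corepressor, 43.4, 41.2, 37.3 and 39.5, and the maintenance methylase Dnmt1 1.25, 1.20, 1.16 and 1.07. Dnmt3b, a de novo methylase, had log2 differences of -0.47 to -0.25 at 48 h and -0.22 to -0.14 at 72 h over its 3 probes.

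Markers of other cell types were read beside these genes. The summed level of the 7 trophoblast markers was 0.464, 0.408, 0.634 and 0.596. Over 2-fold higher were Gata3 and Cdx2 at 72 h (25% of 8 passing probes) and Gata3 at 48 h (12.5%), beside 2.83% and 3.18% of all probes. At both times 6 probes were above control siRNA and 1, of Tfap2a, was below (-0.37 at 72 h and -0.40 at 48 h, log2). Against untreated cells, 4 were higher and 3 lower at 72 h. The summed level of the 8 fibroblast markers was 4.75, 4.39, 5.16 and 5.23, with Lum and Postn dim on all 4 arrays. All 8 passing probes were higher with Rif1 siRNA at both times, beside 40.6% of all probes at 72 h and 42.2% at 48 h. Over 2-fold higher were 0 of them, beside 2.83% and 3.18% of all probes. Most of the fibroblast sum is the Thy1 probe (3.5, 3.11, 3.43 and 3.24), whereas Col1a1 and Col1a2 were 1.76-fold and 1.77-fold above control siRNA at 72 h. The 7 markers of primitive endoderm summed to 2.68, 1.91, 2.22 and 1.63, the 4 neural markers, mostly Tubb3, to 6.55, 5.71, 5.80 and 5.49, and the 4 mesoderm markers, with Mixl1 dim on all arrays, to 2.49, 2.33, 2.03 and 2.01. Most of the mesoderm sum is 1 Kdr probe (2.35, 2.20, 1.89 and 1.88). At 48 h the log2 difference of Mesp1 from control siRNA was -1.42, that of T 0.45 and that of the other Kdr probe 0.95. The part of any such cells in the levels of Dio3, Magel2, Ndn and Plagl1 was not tested.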

How the data were processed

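Cy3-labeled cRNA from 4 samples of total RNA was hybridized, 1 sample to an array. The authors deposited the Agilent Feature Extraction output (version 11.5.1.1 in the submitters' processing notes), in which each spot has a processed intensity, after background subtraction and detrending. A value table that the authors deposited holds the same signals as a ratio, each over its array's 75th percentile. Probe positions are on mm9 as in the array files.

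Here each processed signal was divided by the 75th percentile over 43020 non-control spots, and log2 was taken. Outlier spots were left out (1 spot of a member, on the control siRNA array), and 0 spots were saturated. A probe passed the filter when it reached the 20th percentile on 1 array and was detected or compromised, by the software's flags, on at least 2 of 4. A dim probe took its own level or, if higher, the array's lowest level that was well above background, which gives an "at least" fold, and none if both sides were dim. Called means over 2-fold. There is no test, since each condition has 1 array, and this number limits the precision.

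The members and lists were chosen with earlier results of these data known. Named by rule are members past 1.5-fold from control siRNA and the 10 brightest main probes (the probe with the highest mean log2 level of a gene), and the rest are given by level. Promoter sequences are from RefSeq (GRCm38.p6), probe sequences from the array files. The steps were tested on simulated data. The tools were Python 3.11.15 (pandas 2.3.3, numpy 2.4.6, matplotlib 3.10.9), R 4.3.3 and limma 3.58.1. Alternatives were the deposited ratios, quantile normalization, normexp (offset 50) and untreated cells as reference. Others were dim signals and outlier spots as given, other filters and thresholds, and 1 probe a gene. Chosen after seeing the data was leaving out 3 probes raised on 1 array. These had not passed the filter, so leaving them out could change no count.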

Additional observations from a re-analysis of the deposited data

How the results depend on the processing

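Of 897 single probe values recomputed with other processing, none of those over 2-fold changed sign. Of the smaller ones 28 did, 18 with normexp background correction and 10 with quantile normalization, all with a size of at most 0.44 (log2) as reported. By more than 0.26 (log2) 32 of the 897 moved, 26 of them with normexp. The deposited ratios hold the same signals, and 1 member spot was an outlier. The 180 values under each of these 2 alternatives could therefore hardly change. At 72 h the count of 5 probes over 2-fold from control siRNA was 3 against untreated cells, 8 at 1.5-fold and 0 at 4-fold. The 4 higher probes were 7 and 0 at those thresholds. The 1 lower probe was 0 with normexp, against untreated cells and at 4-fold, and 2 without the filter. At 48 h the count of 4 was 8 at 1.5-fold and 1 at 4-fold. The 3 higher were 2 with normexp (without Ndn, which takes the 4 to 3), 5 against untreated cells, 6 at 1.5-fold and 1 at 4-fold, and the 1 lower was 2 without the filter or at 1.5-fold, and 0 against untreated cells or at 4-fold. Between control siRNA and untreated cells the count of 2, and each of its 1 higher and 1 lower, was 0 with normexp and at 4-fold. The cause was not tested, except that thresholds and filters change what is counted. The list medians ranged from 0.02 to 0.11 at 72 h, 0.03 to 0.14 at 48 h and 0.01 to 0.06 between control siRNA and untreated cells, lowest with normexp in each. Chosen after seeing the data, normexp took the 24 probes with both Rif1 siRNA arrays above both others to 15 and the 6 below to 12. No paired analysis was possible because there was only 1 array in each condition.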
